A study of Homo sapiens with 8 samples.

Results

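Changes in gene expression that ran in the same direction in SH-EP2 and SH-SY5Y neuroblastoma cells with a TRPM7 shRNA were taken from 8 Illumina HumanHT-12 v4 bead arrays. A probe was counted as a member if it was detected, at a detection p under 0.05, on at least 2 of the 4 arrays of each line and if its mean signal changed with the same sign in both lines. Of the 47322 probes on the array, 17453 were detected in both lines by this rule and 9979 of these were members, with 5394 higher and 4585 lower in TRPM7 shRNA cells. The members carry 8150 gene symbols, and 379 of them have no symbol. The sign of change is itself a measured value, so that the agreement in sign between the lines is a part of the rule and not a finding.

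SH-EP2 is an epithelial-like human neuroblastoma line and SH-SY5Y a neuroblastic one, and both descend from the SK-N-SH line. Cells of each line had been transduced with a lentivirus that carried either a TRPM7 shRNA or a scrambled shRNA, and 2 arrays were hybridized for each of the 4 groups (SH-EP2 control, SH-EP2 TRPM7 shRNA, SH-SY5Y control and SH-SY5Y TRPM7 shRNA). The cells of all 4 groups thus carried an shRNA. The array labels give 1 serum-containing DMEM medium for all samples, whereas the methods of the study give DMEM for SH-EP2 and DMEM/F12 with added amino acids for SH-SY5Y cells, so that the media of the lines may have differed. The control and TRPM7 shRNA cells of a line share their medium in either account. The array labels name no more than 1 TRPM7 shRNA and 1 scrambled shRNA. On these arrays, effects of TRPM7 loss and effects of that shRNA sequence on other transcripts thus cannot be told apart. The study used another TRPM7 shRNA for migration assays of SH-EP2 cells, but no array is labelled with it. It is not stated whether the replicates are separate cultures, and p-values then measure the spread between these samples, which may be technical.

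TRPM7 is a membrane protein in which an ion channel, permeable to magnesium, calcium and zinc, is fused to a serine/threonine kinase. The kinase phosphorylates myosin II heavy chains, and the protein has been tied to cell adhesion, actomyosin contractility and migration. Neuroblastoma arises from the sympathoadrenal lineage of the neural crest, an embryonic cell population that detaches and migrates under the control of transcription factors such as SNAI2.

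TRPM7 itself could not be read from these arrays. None of the 8 arrays detected its probe, with detection p-values from 0.0753 to 0.201, and its normalized log2 signals were 2.47 and 2.80 in SH-EP2 control, 2.65 and 2.46 in SH-EP2 TRPM7 shRNA, 2.81 and 3.02 in SH-SY5Y control and 2.69 and 2.63 in SH-SY5Y TRPM7 shRNA cells. The arrays thus neither show the knockdown nor speak against the labels. Marker genes set the 2 lines apart. The noradrenergic genes DBH and STMN2 were not detected on either SH-EP2 control array and had means of 12.62 and 13.47 in SH-SY5Y control cells, whereas TH was not detected on any array. CAV1 and PRRX1, markers of mesenchymal neuroblastoma cells, were not detected on the SH-SY5Y control arrays and had means of 12.93 and 10.90 in SH-EP2 control cells. Between 19331 and 20904 probes were detected per array, and precision is limited by there being 2 arrays per group.

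The average of the effects in both lines was estimated with limma from all 8 arrays, with the cell line as a covariate, and a probe is called here at an adjusted p under 0.05 over all 47322 probes. Of all probes 829, or 1.75%, were called, and 801 of the 17453 probes detected in both lines (4.59%) were called members. In TRPM7 shRNA cells 318 of them were higher and 483 lower, and they carry 702 gene symbols. With median scaling of the arrays in place of quantile normalization, 351 were higher and 249 lower, so that the share of lower calls went from 60.3% to 41.5%. At an unadjusted p under 0.05, 1867 members were higher and 1760 lower. The called average changes were mostly moderate, with a median size of 0.61 on the log2 scale and a range from 0.20 to 2.67, and 64 called members changed by at least 1 in each line. A large change in one line is enough for the average to be called, so that a call by itself does not show a change in both lines.

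The number of calls rested on how the spread was estimated from so few arrays. Without an intensity trend in the eBayes step 8 members were called, and a per-probe test without eBayes called 37, whereas a model with 4 group means called 1496. The changes were also unevenly shared between the lines. Within single lines, 1433 probes passed the threshold in SH-EP2 cells and 1003 in SH-SY5Y, and 290 passed in both, which is 20.2% of the first and 28.9% of the second. Of these 290 probes, 234 had the same sign and 56 opposite signs. A total of 230 probes detected in both lines (1.32%) passed in each line with the same sign, 74 higher and 156 lower, and all 230 were among the called members. Of the remaining called members, 276 passed in SH-EP2 cells alone, 206 in SH-SY5Y cells alone and 89 in neither line. Across the 17453 detected probes the within-line effects had a Pearson r of 0.17, a description across probes that share the normalization and are not independent. Opposite signs were held by 7474 of these probes.

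For 776 of 801 called members both TRPM7 shRNA arrays lay on one side of both control arrays, with the same direction in each line. This held for 18.7% of the probes detected in both lines, a base that takes in probes of opposite signs, which cannot meet it. The calls were made on the same values, so that the separation largely follows from them and is no support for them. The difference between the lines was tested as an interaction, which passed the threshold for 3.32% of the probes detected in both lines and for 97 called members. For these the size of the change differed between SH-EP2 and SH-SY5Y cells, whereas the shared sign was set by the rule. For some the change in one of the lines was close to none, as for LMCD1 (-2.22 in SH-EP2 cells and -0.01 in SH-SY5Y). The plot of the 2 within-line effects shows how the called members fill the quadrants of equal sign.

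**Figure D1:**
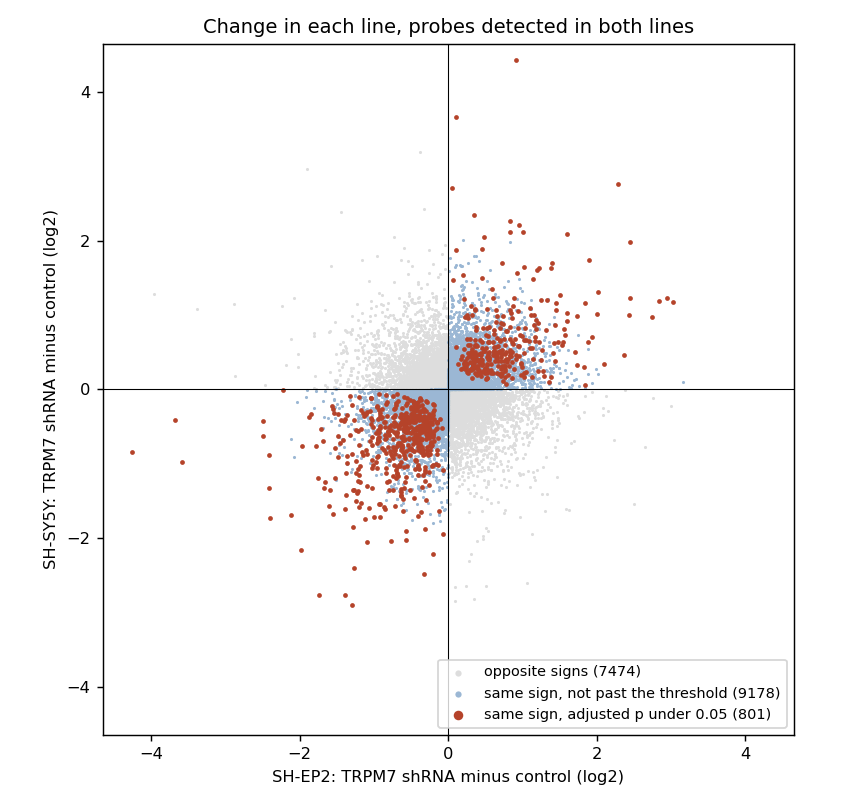
Change in each line for the 17453 probes detected in both lines, with the SH-EP2 effect (TRPM7 shRNA minus control, log2) on the horizontal and the SH-SY5Y effect on the vertical axis. Grey points have opposite signs (7474), blue points are members that did not pass the threshold (9178) and red points are the 801 called members, which by the rule lie in the quadrants of equal sign.

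Genes were ranked by the smaller of their 2 within-line changes, among called members whose arrays were separated in each line and whose brighter group was detected on each of its arrays, and the first 12 in each direction are described. They were chosen on the values given, which are a description. APOE, the lipid carrier apolipoprotein E, led the higher genes. Its log2 signal was 6.83 and 6.49 in SH-EP2 control and 8.93 and 8.97 in SH-EP2 TRPM7 shRNA cells, and 2.52 and 2.97 in SH-SY5Y control and 5.64 and 5.39 in SH-SY5Y TRPM7 shRNA cells. The TRPM7 shRNA arrays were well above the controls in both lines. Both SH-SY5Y control arrays failed to detect it, so that there the increase was at least 5.13-fold, against 4.89-fold in SH-EP2 cells, and the average effect was 2.53 (SE 0.18, adjusted p = 1.38e-07).

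VSNL1, which encodes the neuronal calcium sensor visinin-like 1, rose 5.46-fold in SH-EP2 cells and 3.96-fold in SH-SY5Y. Its arrays read 4.50 and 3.72 in SH-EP2 control, 6.66 and 6.45 in SH-EP2 TRPM7 shRNA, 6.16 and 6.34 in SH-SY5Y control and 8.26 and 8.20 in SH-SY5Y TRPM7 shRNA cells, with an average effect of 2.22 (SE 0.18, adjusted p = 1.01e-06). A second VSNL1 probe rose by 1.60 and 2.10 on the log2 scale. NCAM2, a neural cell adhesion molecule, was at 4.18 and 4.26 in SH-EP2 control and 5.65 and 5.55 in SH-EP2 TRPM7 shRNA cells, and at 4.78 and 4.31 in SH-SY5Y control and 6.27 and 6.09 in SH-SY5Y TRPM7 shRNA cells. Both genes were detected on every array, and in both the groups lay apart in each line. The average NCAM2 effect was 1.51 (SE 0.20, adjusted p = 0.000257).

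HAS3, a hyaluronan synthase, had signals of 3.66 and 4.09 in SH-EP2 control and 5.87 and 5.92 in SH-EP2 TRPM7 shRNA cells, a 4.06-fold rise, and was at least 2.00-fold higher in SH-SY5Y cells, where both controls were undetected and the change did not pass by itself (adjusted p = 0.0577). AQP10, an aquaglyceroporin that passes water and glycerol, went from 3.87 and 3.25 to 6.45 and 6.56 in SH-EP2 cells and from 6.79 and 6.95 to 8.10 on both in SH-SY5Y cells. Its increase was larger in SH-EP2 (7.70-fold) than in SH-SY5Y cells (2.34-fold, interaction adjusted p = 0.00282). The probe of ANGPTL4, a secreted inhibitor of lipoprotein lipase, rose by 1.50 in SH-EP2 cells and by 1.28 in SH-SY5Y on the log2 scale (average adjusted p = 0.00104). Another ANGPTL4 probe, detected on all 8 arrays, had differences of -0.23 and -0.28 and was not called, so that the probes of this gene disagree.

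AQR, an RNA helicase of the spliceosome, was dim: its probe was undetected on both SH-EP2 control arrays and on 1 SH-SY5Y control array, and it rose at least 2.52-fold in SH-EP2 cells and rose by 1.74 on the log2 scale in SH-SY5Y cells. Its second probe, detected on every array, had differences of 0.33 and 0.19 and was not called. CNNM2, which takes part in magnesium transport across the basolateral membrane, was undetected in the controls of both lines, at 2.33 and 2.94 in SH-EP2 cells and 2.67 and 1.73 in SH-SY5Y. In TRPM7 shRNA cells its mean signal was 4.03 in SH-EP2 cells and 3.90 in SH-SY5Y, with the arrays of each line apart from the controls, an increase of at least 1.75-fold and 1.68-fold (average adjusted p = 0.0281). CNNM2 passed in neither line by itself, and its call held in 3 of the 8 fits that left out an array. Of 2 other CNNM2 probes, one was undetected on every array, and the other, detected in SH-SY5Y control cells alone, had differences of -0.56 and -1.41 and was not called.

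The remaining genes of the first 12 were LIN28B, described below with the other regulators, and 3 dim genes. C11orf70 (now CFAP300), needed for assembly of motile cilia, was at least 1.86-fold higher in SH-EP2 cells. This change did not pass by itself in limma (adjusted p = 0.113). The increase for SH-SY5Y cells was 1.64 on the log2 scale. A second C11orf70 probe rose by 1.67 for SH-SY5Y cells but by 0.11 for SH-EP2, and was not called (average adjusted p = 0.356). It was undetected on 1 array of each SH-EP2 group. TSNAXIP1 was at least 2.08-fold higher in SH-EP2 cells, with a log2 change of 1.21 in SH-SY5Y cells, and TTYH2, a tweety family membrane protein, had log2 changes of 1.32 and 1.20. The average calls were close to the threshold for TSNAXIP1 (adjusted p = 0.0237) and TTYH2 (adjusted p = 0.0147). Neither gene passed in either line by itself, and the TSNAXIP1 call was lost with neqc background correction. TSNAXIP1 was called in 2 and TTYH2 in 5 of the 8 fits that left out an array.

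MYADM, which encodes a membrane protein of the MARVEL domain family, led the lower genes. Its arrays read 8.36 and 8.01 in SH-EP2 control and 6.08 and 6.33 in SH-EP2 TRPM7 shRNA cells, and 6.72 and 7.01 in SH-SY5Y control and 4.13 and 5.27 in SH-SY5Y TRPM7 shRNA cells. The groups were well separated in each line, and the decrease was 3.95-fold and 4.49-fold (average effect -2.07, SE 0.20, adjusted p = 6.38e-06). A second MYADM probe was called lower too, with changes of -1.61 and -1.56. SPOPL, a substrate adapter of cullin 3 ubiquitin ligases, went from 6.59 and 5.99 to 4.26 and 4.09 in SH-EP2 and from 7.83 and 7.87 to 6.14 and 6.18 in SH-SY5Y cells (average effect -1.90, SE 0.17, adjusted p = 3.64e-06).

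SFXN1, the mitochondrial serine transporter, fell in both lines. Its signal was 7.25 and 7.08 in SH-EP2 control and 5.95 and 5.63 in SH-EP2 TRPM7 shRNA cells, and 7.31 and 7.24 in SH-SY5Y control and 5.68 and 6.03 in SH-SY5Y TRPM7 shRNA cells. This is a 2.60-fold decrease in SH-EP2 and a 2.68-fold decrease in SH-SY5Y cells (average effect -1.40, SE 0.14, adjusted p = 1.64e-05), and the difference between the lines was 0.04 on the log2 scale (adjusted p = 0.979). PTGS1, the cyclooxygenase COX-1, was at 4.96 and 4.37 in SH-EP2 control cells and undetected in SH-EP2 TRPM7 shRNA cells, a decrease of at least 2.81-fold, and went from 5.22 and 4.84 to 3.39 and 3.21 in SH-SY5Y cells. PDZK1, a scaffold protein with PDZ domains, was undetected in SH-SY5Y TRPM7 shRNA cells, where it was at least 4.45-fold lower than in the controls, whose mean was 5.18. In SH-EP2 cells PDZK1 changed by -1.74 on the log2 scale, with one of the TRPM7 shRNA arrays undetected.

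CDGAP (now ARHGAP31), a GTPase-activating protein for Rac1 and Cdc42, was at least 2.06-fold lower in SH-EP2 cells and changed by -1.35 on the log2 scale in SH-SY5Y cells. PCLO, the presynaptic scaffold protein piccolo, changed by -2.41 and -1.33, and PRMT2, an arginine methyltransferase, by -1.67 and -1.32. A second PRMT2 probe changed less, by -0.47 and -0.56, and was called as well. Another PRMT2 probe, detected on all 8 arrays, had differences of -0.36 and -0.44 and was not called (average adjusted p = 0.0776). DAND5, a secreted antagonist of nodal and BMP signals, changed by -1.29 in SH-EP2 cells and -2.91 in SH-SY5Y, with 1 TRPM7 shRNA array undetected in each line. SNAI2 is described with the regulators. The other names among the first 12 were the array's LOC100133627 and LOC730243, with average effects of -1.61 (adjusted p = 0.0332) and -1.50 (adjusted p = 0.017). Neither passed in either line by itself, and their calls did not hold in every fit that left out an array.

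**Figure D2:**
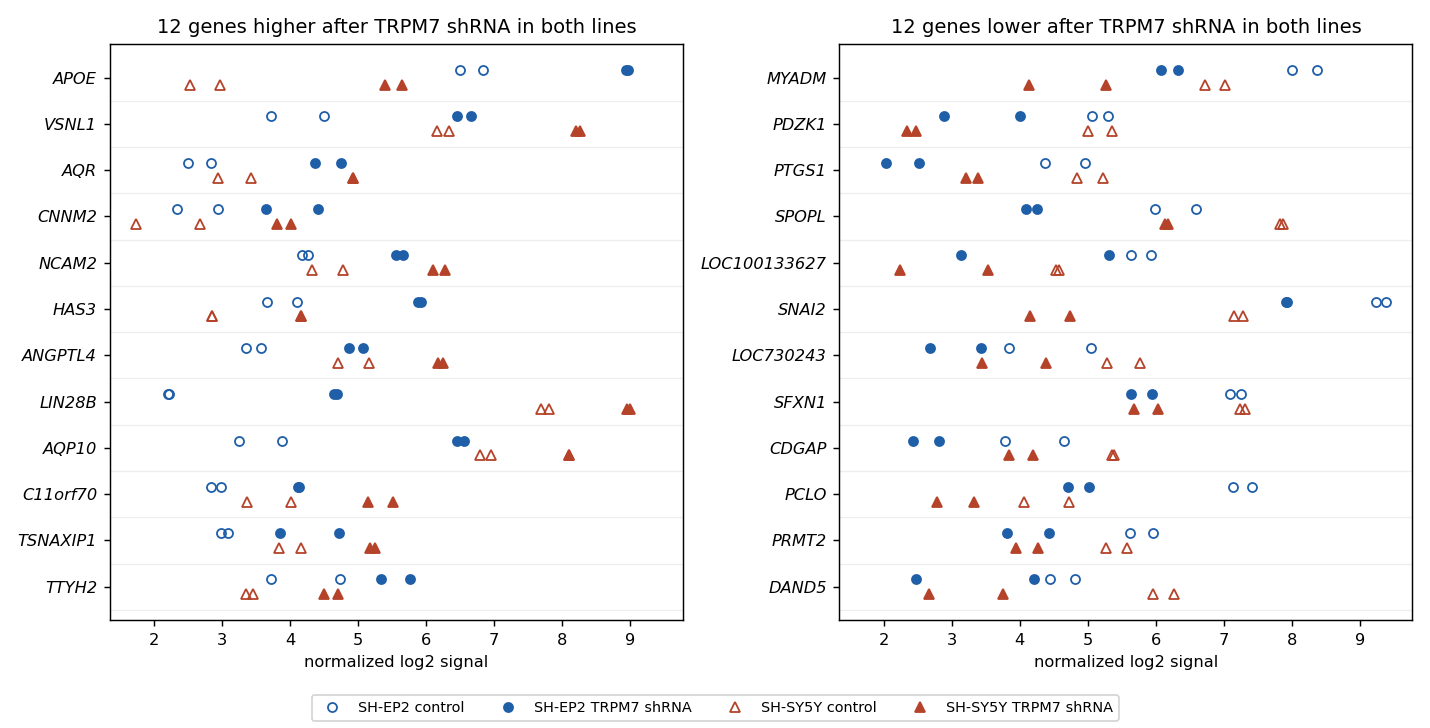
Normalized log2 signal of each of the 8 arrays (horizontal axis) for the first 12 higher and first 12 lower genes, with circles for SH-EP2 and triangles for SH-SY5Y, open for control and filled for TRPM7 shRNA arrays. For each gene the filled symbols lie on one side of the open symbols of the same line, for example above them by 2.29 and 2.77 on average for APOE.

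Several of the large average effects were carried by genes that changed mostly in one line. The following were chosen after their values were seen. NTS, which encodes neurotensin, had the largest average effect of the called members, 2.67, with changes of 0.91 in SH-EP2 cells and 4.43 in SH-SY5Y (interaction adjusted p = 1.06e-06). KCNJ2, an inward rectifier potassium channel, was undetected in SH-EP2 control cells and at least 7.06-fold higher in SH-EP2 TRPM7 shRNA cells, against a log2 difference of 1.18 in SH-SY5Y cells (interaction adjusted p = 0.042). LRP4, a receptor of agrin, likewise was at least 6.04-fold higher in SH-EP2 cells and had a log2 difference of 0.98 in SH-SY5Y cells (interaction adjusted p = 0.0167). LRRC32, which anchors latent TGF-beta at the cell surface, was at least 6.75-fold lower in SH-EP2 cells and had a log2 difference of -0.41 in SH-SY5Y cells (interaction adjusted p = 0.00926).

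LIN28B, POU4F1, ID3, SNAI1 and SNAI2 are regulators that were picked by the study on these same samples, so that their values are no independent evidence of their direction. For SNAI2 the study also used quantitative RT-PCR, by which it reported lower levels with TRPM7 knockdown in both lines. It further reported that SNAI2 was induced in mouse neuroblastoma cells made to overexpress TRPM7. SNAI2, the zinc finger repressor also known as Slug, which directs delamination and migration of neural crest cells, was at 9.39 and 9.23 in SH-EP2 control and 7.91 and 7.92 in SH-EP2 TRPM7 shRNA cells, and at 7.29 and 7.15 in SH-SY5Y control and 4.15 and 4.74 in SH-SY5Y TRPM7 shRNA cells. It was lower on all TRPM7 shRNA arrays, 2.63-fold in SH-EP2 cells and 6.82-fold in SH-SY5Y, with an average effect of -2.08 (SE 0.21, adjusted p = 1.23e-05). The decrease was larger in SH-SY5Y cells by 1.38 on the log2 scale (interaction adjusted p = 0.00413). The second SNAI2 probe changed by -1.27 and -2.40, and for it the interaction had an adjusted p of 0.142. In SH-SY5Y TRPM7 shRNA cells SNAI2 was still detected on both arrays.

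LIN28B, an RNA-binding protein that blocks the maturation of let-7 microRNAs, was undetected in SH-EP2 control cells (2.22 and 2.21) and detected in SH-EP2 TRPM7 shRNA cells (4.68 and 4.65), an increase of at least 2.71-fold. In SH-SY5Y cells, where it was abundant, it rose 2.35-fold, from a mean of 7.75 to one of 8.98, and the groups did not overlap. The average effect was 1.84 (SE 0.21, adjusted p = 5.42e-05). ID3, an inhibitor of basic helix-loop-helix factors, was at 10.70 and 10.56 in SH-EP2 control and 10.10 and 10.16 in SH-EP2 TRPM7 shRNA cells, and at 10.61 and 10.79 in SH-SY5Y control and 10.09 and 10.13 in SH-SY5Y TRPM7 shRNA cells, a decrease of 1.41-fold and 1.51-fold (average adjusted p = 0.000245).

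POU4F1, a POU domain factor of sensory neurons, was at 4.74 and 5.15 in SH-EP2 control and 5.89 and 5.45 in SH-EP2 TRPM7 shRNA cells, and was undetected in SH-SY5Y controls but at 4.21 and 4.17 in SH-SY5Y TRPM7 shRNA cells, at least 2.05-fold higher. Its average effect of 1.21 (SE 0.28, adjusted p = 0.0269) was called in 2 of the 8 fits that left out an array and not with neqc. SNAI1, the relative of SNAI2, was not detected on any array and is not a member. Its mean signals were 2.53 and 1.98 in SH-EP2 and 2.15 and 1.54 in SH-SY5Y cells, control and TRPM7 shRNA, and its average effect had an adjusted p of 0.277, so that no direction is given.

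Gene lists of pathways and cell types were described by 1 probe per gene, the probe with the highest mean over all arrays. Over the 12909 genes detected in both lines by such a probe, 264 were called higher (2.05%) and 384 lower (2.97%), and the median average effect was 0.02 on the log2 scale. Of these 12909 genes, 4075 were higher in both lines and 3381 lower in both. The counts in a list are read against these values, and they are counts, not tests of the list. Of the 83 probes named by rule as leading, regulator and list genes, 0 of the 81 called ones turned direction under any other setting tried. The settings reuse the same arrays, and for most of these probes the groups lay apart in each line. Their steady direction thus largely follows from how they were chosen and is no support for it.

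The list with the most lower calls held genes of amino acid synthesis and uptake under ATF4, the transcription factor that cells induce when amino acids are short. Of its 22 genes, 18 were detected in both lines. Among these 7 were called, all lower, and 13 were lower in both lines against 1 that was higher. The median average effect was -0.39, with -0.57 in SH-EP2 cells and -0.22 in SH-SY5Y. PHGDH, which catalyzes the first step of serine synthesis, was the clearest: 12.84 and 12.72 in SH-EP2 control, 11.55 and 11.57 in SH-EP2 TRPM7 shRNA, 11.67 and 11.85 in SH-SY5Y control and 10.48 and 10.57 in SH-SY5Y TRPM7 shRNA cells. It fell 2.32-fold and 2.36-fold, with an average effect of -1.23 (SE 0.06, adjusted p = 1.05e-09), and it was called both without the trend and by the per-probe test.

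SLC7A5, the light chain of the large neutral amino acid transporter, read 11.14 and 11.17 in SH-EP2 control and 10.09 and 10.04 in SH-EP2 TRPM7 shRNA cells, and 8.72 and 8.90 in SH-SY5Y control and 8.01 and 7.86 in SH-SY5Y TRPM7 shRNA cells (average effect -0.98, SE 0.08, adjusted p = 2.01e-06). Its heavy chain SLC3A2 had differences of -0.55 and -0.22 and was not called (adjusted p = 0.0641). TRIB3, a pseudokinase induced by ATF4, changed by -0.73 and -0.49. Asparagine synthetase, ASNS, changed by -1.11 in SH-EP2 cells and -0.33 in SH-SY5Y, a decrease that was larger in SH-EP2 cells (interaction adjusted p = 0.000591), and a second ASNS probe changed by -0.86 and -0.44. VLDLR, a lipoprotein receptor, changed by -2.42 and -0.88. The other called genes, PSAT1 of serine synthesis and PCK2, the mitochondrial PEP carboxykinase, changed mostly in SH-EP2 cells, by -1.30 and -1.20, against -0.21 and -0.10 in SH-SY5Y cells, where neither passed (interaction adjusted p = 0.000111 and 0.000803).

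ATF4 itself had an adjusted p of 0.0618, with changes of -0.36 and -0.13 in its mRNA. SESN2 was the one gene of the list with higher means in TRPM7 shRNA cells of both lines, by 1.17 and 0.89, and was not called (adjusted p = 0.245). To show the kind of element through which ATF4 acts, the 250 bases before the start of each gene were searched on both strands for TGATGNAA, part of the C/EBP-ATF response element. RefSeq promoters of GRCh38.p14 were matched for 17 of the 22 genes, and 3 of them hold a match (ASNS, ATF3 and CHAC1), as do 1104 of all 35116 promoters (3.14%). Of the 7 called genes 1 holds a match. A stretch of 80 bases upstream of the ASNS start is shown because it carries that match, written in capitals, whose first base lies 68 bases before the start (chr7:97872433-97872512, minus strand, 5' to 3').
ASNS: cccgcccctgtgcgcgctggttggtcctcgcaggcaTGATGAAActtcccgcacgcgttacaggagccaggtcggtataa
A match is a description of the letters in this window, and a window without one says nothing about the factor.

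Targets of p53, which include brakes on the cell cycle and genes of DNA repair, held the most higher calls of the pathway and cell type lists plotted by list. Of the 23 genes 21 were detected in both lines. Among these 5 were called, all higher, 16 were higher in both lines and 1 was lower in both, and the median average effect was 0.27, with 0.39 in SH-EP2 cells and 0.29 in SH-SY5Y. CDKN1A, the cyclin-dependent kinase inhibitor p21, was abundant in both lines, at 12.59 and 12.54 in SH-EP2 control and 13.08 and 13.09 in SH-EP2 TRPM7 shRNA cells, and 11.05 and 11.18 in SH-SY5Y control and 11.66 and 11.45 in SH-SY5Y TRPM7 shRNA cells. Its increase was 1.43-fold and 1.35-fold (average adjusted p = 0.000165).

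SESN1, a sestrin that restrains mTORC1, went from 6.78 and 6.77 to 7.58 and 7.90 in SH-EP2 and from 7.02 and 6.86 to 7.73 and 7.62 in SH-SY5Y cells (average effect 0.85, SE 0.12, adjusted p = 0.000645). PHLDA3, a repressor of AKT, rose by 0.54 and 0.71, and TP53INP1 by 0.66 and 0.47, with a second TP53INP1 probe at 0.78 and 0.39. XPC, which recognizes DNA damage in nucleotide excision repair, had changes of 0.38 and 0.44 and was called in 2 of the 8 fits that left out an array. MDM2, the p53 ubiquitin ligase, had changes of -1.16 and -0.10 and was not called (adjusted p = 0.57), and BBC3 had opposite signs in the 2 lines. The DNA replication and mitosis list held 2 calls among 28 detected genes, MCM2 (average effect -0.44) and BIRC5 (-0.30), both lower. Its median average effect was -0.05 and turned to 0.03 with median scaling. BIRC5 was called in none of the 8 fits that left out an array.

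**Figure D3:**
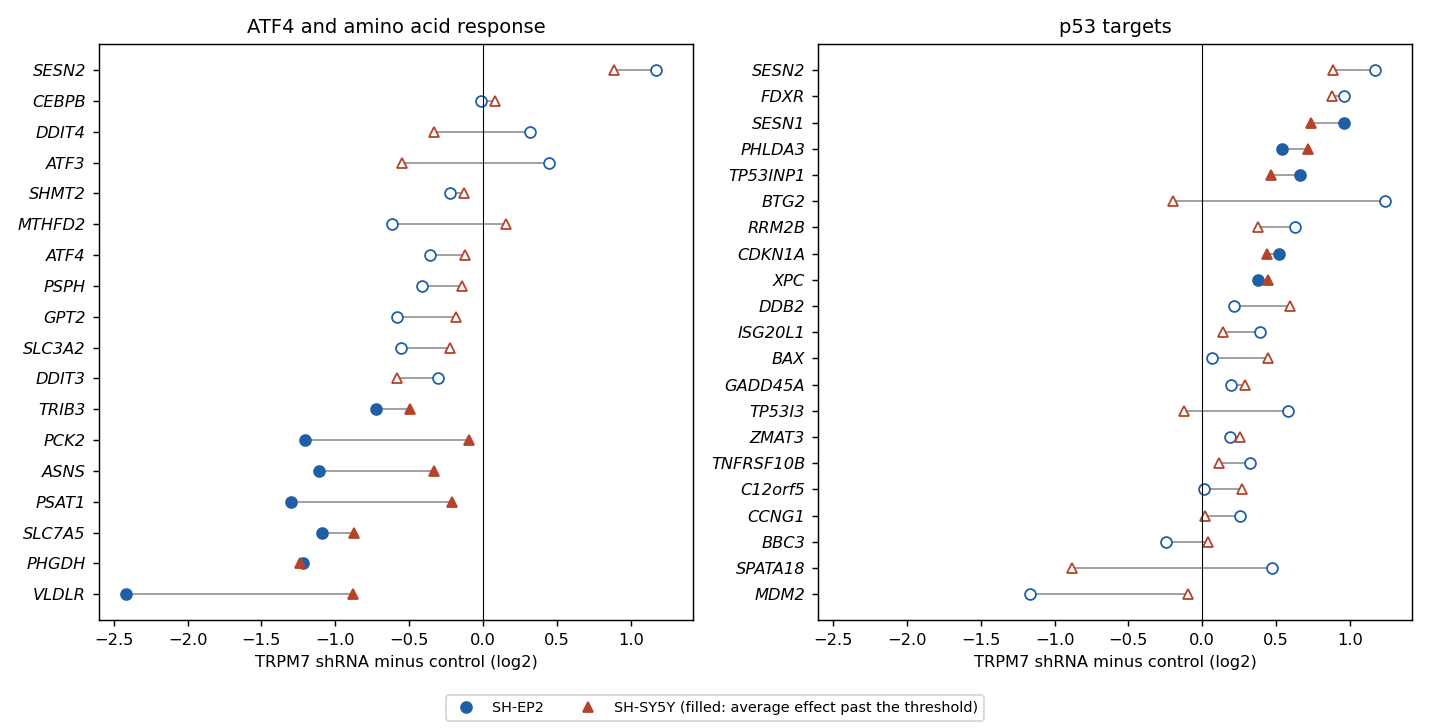
Change in SH-EP2 (circles) and SH-SY5Y cells (triangles), TRPM7 shRNA minus control on the log2 scale, for each gene of the ATF4 and amino acid list (18 genes) and of the p53 target list (21 genes) that was detected in both lines. Filled symbols mark genes with a called average effect, 7 lower in the first list and 5 higher in the second.

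Calls among genes of the actin cytoskeleton were all lower. Among 16 detected genes of the list of actin genes and targets of SRF, the transcription factor that responds to actin dynamics, 5 were called, all lower, and 10 were lower in both lines with none higher in both. The median average effect was -0.26, with -0.47 in SH-EP2 cells and -0.10 in SH-SY5Y. The tropomyosin TPM4 went from 9.42 and 9.24 to 8.29 and 8.51 in SH-EP2 and from 8.51 and 8.66 to 8.08 and 7.93 in SH-SY5Y cells (average effect -0.75, SE 0.10, adjusted p = 0.00043), and a second TPM4 probe changed by -1.07 and -1.60. TPM1 changed by -0.26 and -0.62 on its brightest probe and by -0.19 and -0.70 on another, whereas 2 further TPM1 probes had higher means in TRPM7 shRNA cells of both lines and were not called, so that the probes of this gene disagree. TGFB1I1, a focal adhesion adapter also known as Hic-5, changed by -0.55 and -0.37. CALD1, the actin-binding protein caldesmon, and MYH9, the heavy chain of non-muscle myosin IIA and a known substrate of the TRPM7 kinase, were called from SH-EP2 cells. There they changed by -1.33 and -0.70, against -0.09 and -0.07 in SH-SY5Y cells, in which the groups overlapped, and the interaction was past the threshold for both (adjusted p = 3.31e-06 and 0.00391). A second CALD1 probe was called as well (-1.54 and -0.32), another had opposite signs, and the second MYH9 probe was not called.

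Of 20 detected genes of integrins and focal adhesions, 3 were called, all lower, and the median average effect was -0.18. These were ITGB5, an integrin beta subunit that binds vitronectin (-0.39 in SH-EP2 cells and -0.65 in SH-SY5Y, adjusted p = 0.000555), ZYX, the focal adhesion protein zyxin (-0.38 and -0.53, adjusted p = 0.00729), and ITGA1, a collagen-binding integrin alpha subunit (-1.53 and -0.79, adjusted p = 0.0149). Another 2 ITGB5 probes were called lower as well, and ITGA1 was called in 3 of the 8 fits that left out an array. The list of collagens, laminins and matrix genes was mixed, with 4 of 21 detected genes called lower and 1 higher, and list medians of -0.36 in SH-EP2 cells and 0.14 in SH-SY5Y. COL5A1 and COL18A1 changed by -0.55 and -0.76 on average, COL1A1 by -0.44 and LAMC1, a laminin chain, by -0.58, the last mostly in SH-SY5Y cells (-1.02 against -0.14 in SH-EP2 cells, interaction adjusted p = 0.00228). TNC, the matrix protein tenascin-C that marks migrating neural crest, rose in both lines, from 8.70 and 8.84 to 9.35 and 9.49 in SH-EP2 and from 7.11 and 6.63 to 7.63 and 7.50 in SH-SY5Y cells, and a second TNC probe was called higher too.

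Of 8 detected mesenchymal markers, SNAI2, COL1A1 and COL5A1 were called lower, while CD44 had changes of 0.77 and 0.29 (adjusted p = 0.0782) and VIM had opposite signs. Of 10 detected transcription factors of epithelial-mesenchymal transition, SNAI2 and TCF4, an E protein, were called lower. TCF4 changed by -0.20 and -0.60 and was called in 3 of the 8 fits that left out an array, and not with median scaling. HIF1A, with -0.69 and -0.26, was not called (adjusted p = 0.0617), and TWIST1 had opposite signs. Among 6 noradrenergic markers detected in both lines limma called 0, and 2 had an unadjusted p under 0.05. Of 10 detected targets of YAP and TAZ, which respond to adhesion and tension, FJX1 was called higher (0.84 and 0.84) and ASAP1 lower (-0.29 and -0.63). In all, 3 ASAP1 probes were called lower. The median average effects were -0.17 for the mesenchymal, -0.24 for the transition, 0.04 for the noradrenergic and -0.23 for the YAP and TAZ list.

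Calls among axon guidance genes were all higher. Of 21 detected in both lines 4 were called, all higher, and 10 were higher in both lines against 3 lower, with a median average effect of 0.24. They were the secreted guidance cues SEMA3A, at 6.39 and 6.46 in SH-EP2 control, 7.98 and 7.71 in SH-EP2 TRPM7 shRNA, 7.92 and 7.83 in SH-SY5Y control and 8.62 and 8.37 in SH-SY5Y TRPM7 shRNA cells, and SLIT2, with changes of 0.86 and 0.96. They also included PLXNA1, a semaphorin receptor (0.53 and 0.64), and the transmembrane ephrin EFNB3 (0.27 and 0.60). The EFNB3 call was lost in 3 of the 4 fits that left out an SH-SY5Y array.

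Around LIN28B, 10 genes of the LIN28 and let-7 list were detected in both lines, with a median average effect of 0.20. Beside LIN28B itself, the mRNA-binding protein IGF2BP3 was called, with 8.48 and 8.41 in SH-EP2 control, 9.12 and 9.19 in SH-EP2 TRPM7 shRNA, 10.18 and 10.03 in SH-SY5Y control and 10.50 and 10.47 in SH-SY5Y TRPM7 shRNA cells (average effect 0.55, SE 0.09, adjusted p = 0.00132). HMGA1 had changes of 0.50 and 0.27 (adjusted p = 0.0513), whereas IGF2BP2 and MYC had opposite signs. Of 9 detected genes of ID proteins and BMP feedback, ID3 was called and the list medians were -0.50 in SH-EP2 cells and 0.03 in SH-SY5Y.

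Cholesterol synthesis genes went both ways. Of 22 detected genes 1 was called higher and 2 lower, and the median average effect was -0.17. INSIG1, which retains SREBP in the endoplasmic reticulum, changed by -0.47 and -0.43 (adjusted p = 0.00849). TM7SF2, a sterol reductase of the pathway, rose by 1.17 and 0.70 (adjusted p = 5.43e-05).

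Metallothioneins, small zinc-binding proteins whose transcription follows free zinc, were the called genes of the zinc list. MT1A was at 12.71 and 12.83 in SH-EP2 control and 12.07 and 12.12 in SH-EP2 TRPM7 shRNA cells, and at 8.77 and 9.10 in SH-SY5Y control and 8.33 and 8.06 in SH-SY5Y TRPM7 shRNA cells, a decrease of 1.60-fold and 1.68-fold. MT2A changed by -0.48 and -0.81 and MT1X by -1.03 and -0.42, the latter more in SH-EP2 cells (interaction adjusted p = 0.0284). Metallothionein genes are near-identical, so that their probes may share target. These are 3 lower calls among 17 detected genes of the list, whose median average effect was -0.06 and turned to 0.03 with median scaling. Among 11 detected genes of TRPM channels and magnesium transport CNNM2 was the one called, and the list median was 0.12.

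Of 24 detected genes of glycolysis and hypoxia 5 were called lower and 1 higher, and 15 were lower in both lines against 4 higher, with a median average effect of -0.14. ANKRD37, a target of HIF-1, was lower mostly in SH-EP2 cells (-2.49, against -0.63 in SH-SY5Y cells, interaction adjusted p = 1.85e-05). ALDOC, an aldolase, changed by -0.82 and -0.56, and PFKP, a phosphofructokinase, by -0.14 and -0.66. VEGFA changed by -0.68 and -1.16 and LDHA by -0.19 and -0.21. Other LDHA probes, detected on all 8 arrays, had differences of -0.05 and -0.30, and of -0.03 and -0.47, and were not called. Another VEGFA probe, undetected in SH-SY5Y control cells, had opposite signs (-0.83 and 0.52). LDHA was called in 1 and VEGFA in 2 of the 8 fits that left out an array. ADM, the vasodilator adrenomedullin, was called higher (0.72 and 0.32) though its groups overlapped in SH-SY5Y cells.

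Immune genes were also mixed. Of 12 detected genes of MHC class I and peptide loading 2 were called lower, among them B2M, the light chain of class I molecules (-0.15 and -0.44), with list medians of -0.07 in SH-EP2 cells and -0.54 in SH-SY5Y. The B2M call was lost with median scaling, and its second probe was not called. Of 18 detected interferon-stimulated genes, IFI44L rose, from 7.36 and 7.62 to 8.76 and 8.60 in SH-EP2 cells and at least 1.77-fold in SH-SY5Y cells, whose controls were undetected. The membrane proteins IFITM2 and IFITM3, close paralogs, were called lower, with -0.82 and -1.04 in SH-SY5Y cells against -0.15 and -0.22 in SH-EP2 cells (interaction adjusted p = 0.00309 and 0.0072). Of 7 detected NF-kB targets the chemokine IL8 (now CXCL8) was called, with 5.30 and 5.09 in SH-EP2 control, 7.56 and 7.69 in SH-EP2 TRPM7 shRNA, 3.23 and 3.34 in SH-SY5Y control and 3.99 and 4.58 in SH-SY5Y TRPM7 shRNA cells. Its second probe, undetected in SH-SY5Y cells, was higher in SH-EP2 cells by 4.02. The median average effects of these lists were -0.38 for MHC class I, 0.02 for interferon-stimulated genes and 0.21 for NF-kB targets. The NF-kB list ran in opposite directions, with medians of 0.95 in SH-EP2 cells and -0.34 in SH-SY5Y.

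The housekeeping lists held few calls. Limma called 0 of 30 detected cytosolic ribosomal proteins, of which 4 had an unadjusted p under 0.05. Of 27 detected genes of oxidative phosphorylation ATP5B (now ATP5F1B) was called, at an average effect of 0.24 (adjusted p = 0.042), and 16 were higher in both lines against 3 lower. MAP1LC3B and GABARAPL1, both of the ATG8 family of autophagosome proteins, were called lower among 24 lysosome and autophagy genes (-0.38 and -0.60). XBP1 (-0.39), of the unfolded protein response, was the one call among 16 genes of its list, and HSPB1 (-0.23) the one among 15 heat shock proteins. The calls of MAP1LC3B, GABARAPL1, XBP1 and HSPB1 were lost with median scaling and that of ATP5B with neqc. The median average effects lay between -0.07 for the unfolded protein response and 0.09 for oxidative phosphorylation.

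**Figure D4:**
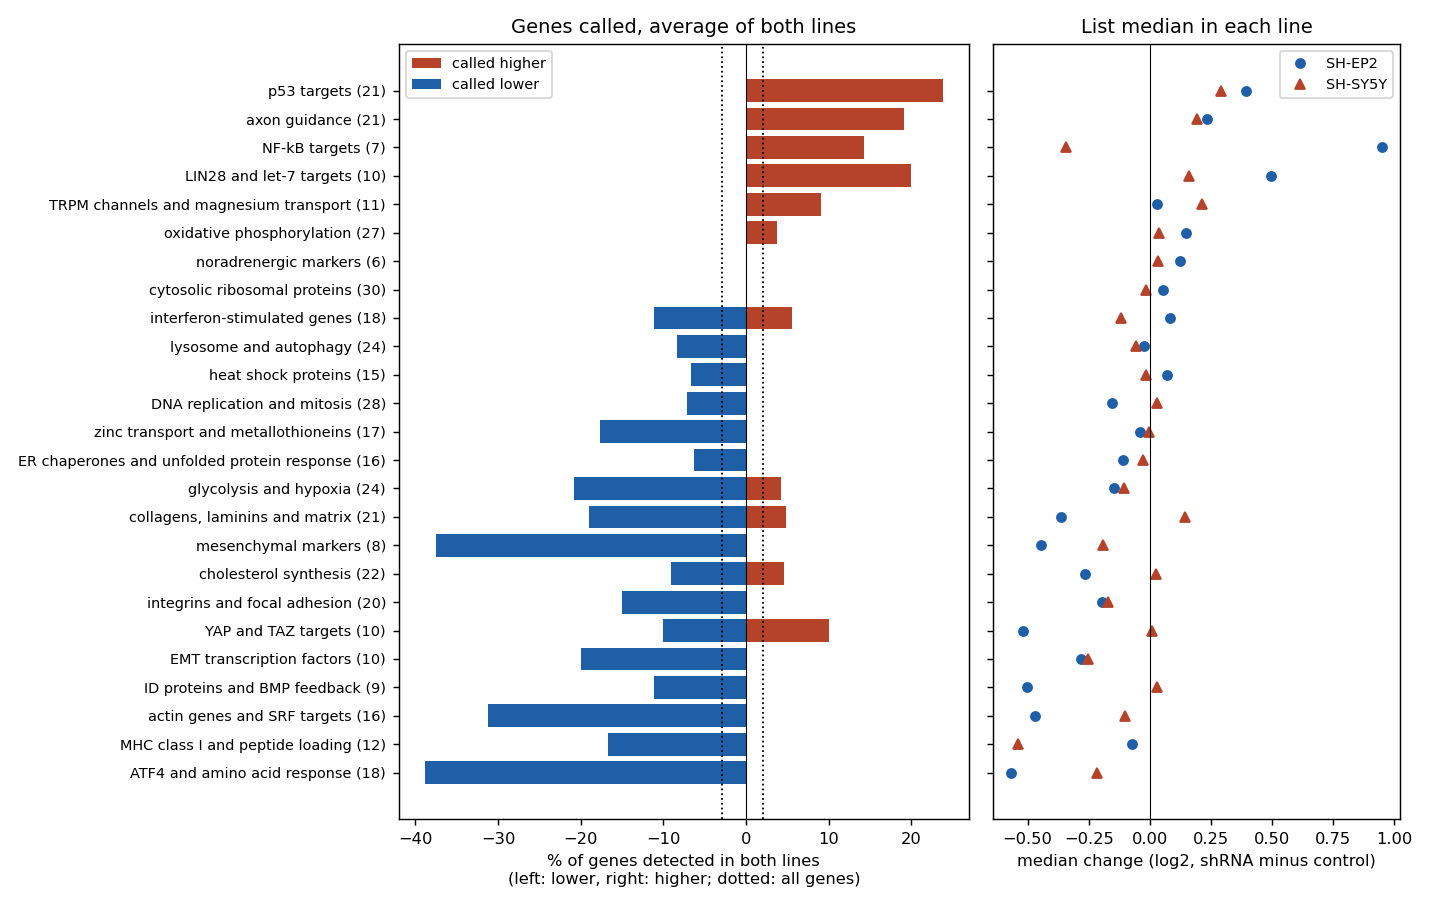
Left, share of the genes detected in both lines (their number in brackets) that were called lower (blue, to the left) or higher (red, to the right) for each gene list, with dotted lines at the shares over all genes, 2.97% lower and 2.05% higher. Right, median change of the list in SH-EP2 (circles) and SH-SY5Y (triangles), TRPM7 shRNA minus control on the log2 scale, which for the p53 targets was 0.39 and 0.29 and for the ATF4 list -0.57 and -0.22.

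At the edge of the rule, LMCD1 was the called member with the smallest change in one line (-2.22 in SH-EP2 cells and -0.01 in SH-SY5Y), and PALMD came next, with 0.04 and 2.71. FHL1 (-1.80 and 0.02) and HES4 (-1.52 and 0.00) lay just outside it, as detected probes with opposite signs. All 829 called probes had the same sign in both lines. The model for the average counts a difference between the lines as spread, so that probes of opposite signs can hardly be called. This agreement is thus not a finding. Of the called probes, 28 were left out as not detected in both lines, among them TDO2 (1.49 and 1.08) and COL8A1 (-1.01 and -1.13). Of the called genes, 239 had 2 or more probes detected in both lines. For 215 of these all such probes moved one way on average, and for 73 at least 2 probes were called. For 3 genes, MXRA7, TMEM267 and TUBA1C, probes were called in both directions.

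Of the 81 called genes that the ranking, the regulators and the lists brought into this account, 51 were called with each array left out in turn, and the other 30 were not. The calls of CALD1, COL1A1, ADM and XBP1 were lost whenever 1 of the SH-EP2 arrays was left out, and that of LAMC1 whenever 1 of the SH-SY5Y arrays was. The calls of MYH9 (3 of 8 fits), MCM2 (3), B2M (4), IFITM2 (5), MAP1LC3B (5) and HSPB1 (6) also rested on single arrays, as did those of ATP5B (1) and GABARAPL1 (1). C11orf70, CDGAP, TP53INP1 and IFITM3 kept theirs in 7 of the 8 fits. With median scaling the calls of TGFB1I1, CALD1, MYH9, COL1A1, INSIG1, MCM2, BIRC5 and LDHA were lost as well. The calls of APOE, VSNL1, AQR, SPOPL and PHGDH held without the intensity trend. Of these, APOE and PHGDH were also called by the per-probe test without eBayes, whereas VSNL1, AQR and SPOPL were not. For AQR the brighter second probe was not called.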

How the data were processed

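Gene expression was measured on 8 bead arrays. The intensities of 47322 probes were exported by the authors from GenomeStudio 2011.1, on a linear scale and not normalized. Each was deposited with its detection p-value. The methods normalized by Robust-Multi-Array. The same steps were run here, namely RMA background correction and quantile normalization over all arrays, followed by log2, and no probe was filtered out. Models were fitted with limma 3.58.1 in R 4.3.3 (lmFit, eBayes with an intensity trend): cell line plus shRNA for the average effect (5 residual degrees of freedom), and 4 group means for within-line effects and the interaction. All tests were two-sided. P-values were adjusted (Benjamini-Hochberg) over the whole array before membership was applied. The procedure was checked on simulated arrays, where most changes made in a single line were called, nearly as often as changes made in both. It thus does not separate shared changes from those of a single line. Median signals ranged from 105 to 120 (background 98.3 to 111).

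The members and gene lists were chosen with earlier results of these data known. Named are the first 12 higher and 12 lower genes by the smaller within-line change (called, arrays separated in each line, brighter group detected), TRPM7, the 5 regulators and up to 5 called genes per list, besides further list genes (not called, or called beyond the 5) and genes given as chosen after their values were seen. A fold for a group undetected on both arrays is a bound: the brighter group's mean was set against a floor, which on each array is the dimmest detected signal or, if higher, the signal of the probe itself. Means and effects are log2 values of 2 arrays per group. Of 31426 symbols, 17761 are current in RefSeq (GRCh38.p14) and 3307 are older names there. Alternatives were other backgrounds, scaling, filters, spread estimates, detection rules, a replicate block and leaving out each array. Certain genes are not reported here.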

Additional observations from a re-analysis of the deposited data

Results flagged for a closer look

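For 19 of the genes given above the effect of the TRPM7 shRNA differed in size between the lines by the interaction test in limma. Its shared sign is a part of the rule for members and not a finding. The change in the other line was close to none for some, such as LMCD1 (-0.01 in SH-SY5Y cells) and PALMD (0.04 in SH-EP2 cells). The differences are given as the SH-EP2 effect minus the SH-SY5Y effect on the log2 scale. Among higher genes, KCNJ2 (1.85), LRP4 (1.76), AQP10 (1.72) and LIN28B (1.22) changed more in SH-EP2 cells, whereas NTS (-3.52) and PALMD (-2.66) changed more in SH-SY5Y cells. Among lower genes, LRRC32 (-3.27), LMCD1 (-2.21), ANKRD37 (-1.87), CALD1 (-1.24), PCK2 (-1.10), PSAT1 (-1.09), ASNS (-0.78), MYH9 (-0.63) and MT1X (-0.61) changed more in SH-EP2 cells. SNAI2 (1.38), LAMC1 (0.88), IFITM3 (0.82) and IFITM2 (0.67) changed more in SH-SY5Y cells. For KCNJ2, LRP4, LIN28B and LRRC32 one of the SH-EP2 groups was undetected, so that the difference there takes in a signal at background.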

How the results depend on the processing

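Of 801 called members (318 higher, 483 lower), 8 were called without an intensity trend (3 and 5), of which 0 had an interaction past the threshold in limma, also at an unadjusted p under 0.05. The model for the average counts a difference between the lines as spread. The lack of interactions thus largely follows from the selection and does not show equal effects. The per-probe test without eBayes called 37 (11 and 26), and 4 group means called 1496 (666 and 830), among them all 801. With a replicate block 430 were called (146 and 284), and 527 with crossed numbers in SH-SY5Y cells (188 higher). The samples share only a number: same-numbered samples did not deviate together (r = -0.00442 in SH-EP2, -0.111 in SH-SY5Y, over 14577 probes). Passing in each line separately left 230, or 148 with median scaling, 349 with the fit over detected probes alone and 2 without the trend. Median scaling called 249 lower members. Of 97 called members with an interaction, the count was 53 with median scaling and 152 without background correction. Leaving out 1 array gave 474 to 687 called members, 163 to 266 higher and 306 to 421 lower, 122 to 212 past the threshold in each line and 42 to 75 with an interaction, and it was the SH-EP2 arrays whose omission cut the total by over 1.5 times (478 and 474 without a control, 498 and 496 without a TRPM7 shRNA array). The crossed numbers and the recounts by direction, by line and by interaction were added after the data were seen. A group left with 1 array is assumed to vary like the others. The remaining settings kept each of these counts within 1.5 times. Of 81 called genes named by the rule, 51 held with each array left out in turn, 66 with median scaling and 77 with neqc, and 0 turned direction under any setting. The steady direction of the named genes largely follows from how they were chosen and is no support for it. Of 286 recomputed list medians 10 changed sign, all in lists with medians from -0.06 to 0.04 (DNA replication, zinc, interferon, lysosome and noradrenergic). The cause of these differences was not tested. Probes near background limit what can be said: 58 of the 801 called members were not detected on all 8 arrays.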

Other observations

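Other groups of called members were looked at after their values were seen, and they are given as values with no test of the group. Of 16 genes of iron handling, all detected in both lines, 5 were called higher and 1 lower. The called genes were the transferrin receptor TFRC (log2 changes of 0.52 in SH-EP2 cells and 0.22 in SH-SY5Y), the iron exporter SLC40A1 (1.18 and 0.81), the iron importer SLC11A2 (1.04 and 0.67), CPOX of heme synthesis (0.89 and 0.68) and the mitochondrial transporter ABCB10 (0.36 and 0.51). ACO1, which as an apoprotein binds iron-responsive elements, was lower (-0.64 and -0.64, adjusted p = 0.000198). The ferritins FTH1 and FTL were not called, with average effects of 0.12 and 0.08.

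Small nucleolar RNAs, which guide the modification of ribosomal RNA, had 72 of 275 measured genes detected in both lines. Of these, 35 were higher in both lines and 9 lower, with a median average effect of 0.20 on the log2 scale. Over all 12909 genes detected in both lines, 4075 were higher in both and 3381 lower. The called genes were SNORD13 (0.88 and 1.23), SNORD16 (1.21 and 0.89), SNORD80 (0.52 and 0.83), SNORA12 (0.86 and 0.37) and SNORA63 (1.53 and 0.60), all higher. Several of these genes lie within introns of host genes, and whether their probes read host transcripts was not tested. Of 18 aminoacyl-tRNA synthetases, AARS (-0.30 on average), GARS (-0.56) and YARS (-0.32) were called, all lower. Among the 9 with the same sign in both lines, 4 were higher and 5 lower, and the median average effect of the list was -0.12.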
